A study of Drosophila melanogaster with 12 samples.

Results

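The miRNAs described here come from the Drosophila hairpins numbered from mir-4900 up to mir-4999, a block of names given late in the annotation of the fly genome. Members were every row of the deposited table whose hairpin carries such a number, which gave 77 rows from 55 hairpins, out of 408 rows from 238 hairpins in all. A row is one mature miRNA, either the 5p or the 3p arm of its hairpin, and the members were 37 5p rows and 40 3p rows. Both arms were listed for 22 hairpins and 1 arm for the other 33.

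The libraries were made from small RNA that co-precipitated with AGO1 from heads of flies of the wild-type Canton-S strain. Each group is labelled with a single temperature, 18°C for the coldest group, 25°C for the middle one and 29°C for the warmest. Heads of each group were taken at ZT3, at ZT9, at ZT15 and at ZT21, where ZT is the time in hours since lights on. This gave 12 libraries, 1 for each temperature and time point. The 4 time points of a temperature served as its replicates (n = 4). No transgene, mutation or drug was named in the labels for any group, and the sex and age of the flies and the number of heads were not given there. The values are the deposited ones, that is reads divided by one size factor per library, and are given as mean ± SD. Where 4 values are listed for a temperature they stand in the order ZT3, ZT9, ZT15, ZT21. Nothing in the labels says that libraries of one temperature came from separate cultures, and their spread also holds any effect of time of day.

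In flies, a miRNA hairpin is usually cut out of a longer transcript by Drosha and trimmed by Dicer-1, after which one arm of the duplex is kept by AGO1 and guides it to partly matching mRNAs. Mirtrons take another route, in which splicing releases a short intron that folds into the hairpin itself, so that the hairpin ends are the splice sites of its host gene. Because such small hairpins are often made in few cells or in low amounts, deep sequencing is needed to see them at all.

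Depth, with rows that repeated another row counted once, was between 4423511 reads (29°C ZT21) and 16840372 reads (25°C ZT15), so that a floor of 3 reads corresponded to values of 1.97 to 7.65 depending on the library. The head label was checked on 6 miRNAs of neurons and photoreceptors, which were all in the table and summed to 242812 to 398755 per library. Most of that sum was miR-7-5p (150722 to 290767), while the neuronal miR-124-3p was at 141 to 232 at 18°C, 114 to 268 at 25°C and 86.0 to 145 at 29°C. Reads of miRNAs used as markers of other tissues were also found. Of 28 arms of testis miRNAs, 23 were in the table and 3 reached a mean of 10 reads, and their sum was 76.8 to 98.7 at 18°C, 64.3 to 136 at 25°C and 155 to 210 at 29°C, without overlap between 29°C and the other temperatures. The testis arms miR-962-3p and miR-963-5p were at 0 in all libraries but 1. A pair of ovary miRNAs summed to 121 to 322, 92.9 to 176 and 112 to 449, and a pair of muscle miRNAs to between 195931 and 666663.

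The members were rare. Their median over the 77 rows was a mean of 1.83 reads per library, while the other 331 rows had a median of 82.8, the 26 rows numbered mir-9300 to mir-9399 had 3.17 and the 36 rows numbered mir-2200 to mir-3699 had 0.583. A mean of at least 10 reads was reached by 15 members. The remaining 62 are called low-read rows below: 36 of them had at least 10 but fewer than 120 reads over the 12 libraries, 20 had 2 to 9 and 6 had a single read. No member was without a read, but neither was any of the 408 rows. A miRNA without a read may therefore be missing from the table, and the full block cannot be said to have been detected. Of the 77 members, 19 had a read in every library. All members together held 12109 reads, of which miR-4951-5p (3343) and miR-4919-3p (2560) made up 48.7% and the 62 low-read rows 11.2%.

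**Figure D1:**
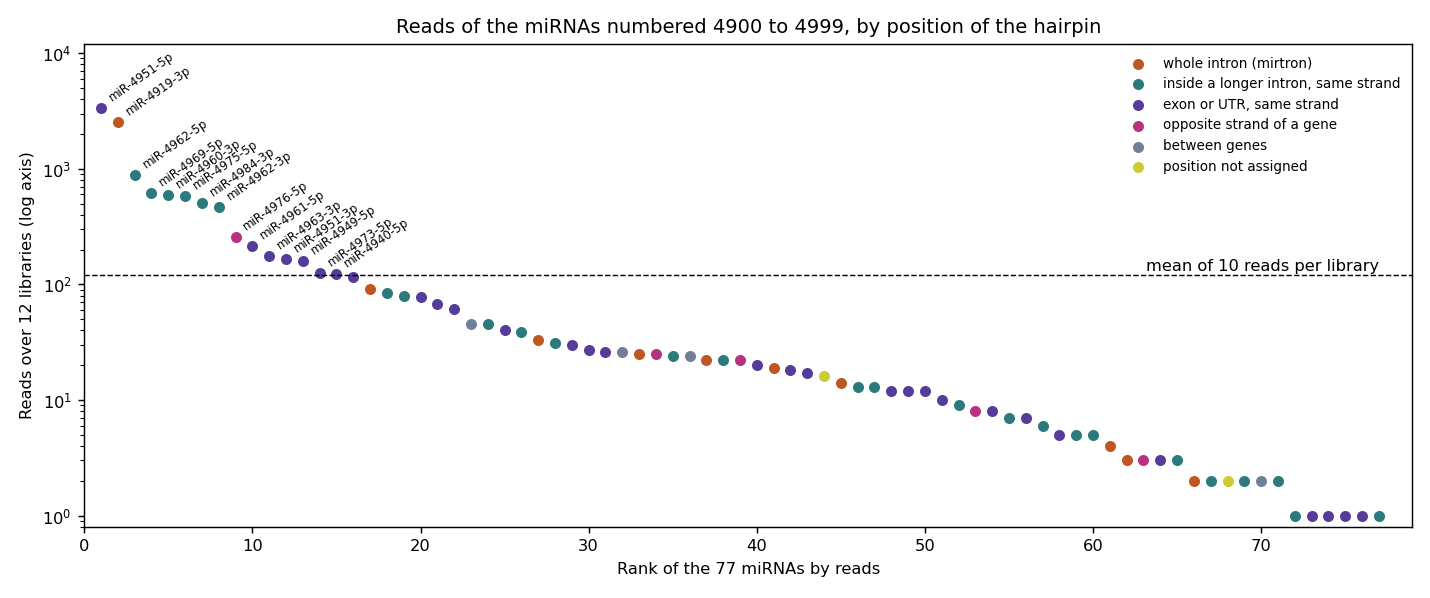
Reads of each of the 77 miRNAs summed over the 12 libraries (log axis), ranked from most to fewest, with colours for the position of the hairpin relative to annotated genes and a dashed line at a mean of 10 reads per library. The 15 named miRNAs lie above the line, led by miR-4951-5p with 3343 reads and miR-4919-3p with 2560, and the ranking runs out in 6 rows of 1 read.

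The number of members seen was lowest in the shallowest library, with 37. At least 1 read was found for 51.8 ± 5.56 members at 18°C, 52.5 ± 3.11 at 25°C and 46.8 ± 8.18 at 29°C, ranges that overlapped (46 to 57, 50 to 57 and 37 to 54). When every library was thinned to the depth of the shallowest one, the means were 38.6 ± 1.92, 37.9 ± 1.37 and 37.5 ± 1.54. Members held 0.00881% ± 0.00116 of all reads at 18°C, 0.00840% ± 0.000713 of them at 25°C and 0.0103% ± 0.00147 of them at 29°C. A read was found for 69 members at 18°C, 67 at 25°C and 65 at 29°C. Of these, 7 were read only at 18°C, 3 only at 25°C and 1 only at 29°C. Each of those 11 rows had at most 4 reads, so their absence elsewhere was at the limit of detection at this depth.

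By name, 54 of the 55 hairpins were found in the BDGP6.54 annotation of the fly genome, and all coordinates below are from that build. mir-4966 is listed there at a pair of loci on the X chromosome and was not assigned. Chromosome arm 2R and the X carried 14 hairpins each, 2L and 3R 10 each, and 3L 6. There were 10 mirtrons by position, whose ends were both at 0 bases from the ends of an annotated intron: mir-4908 to mir-4916 and mir-4919. A further 18 lay inside a longer intron on the strand of the host gene, 19 overlapped an exon or UTR of a gene on the same strand, 4 lay on the opposite strand of a gene and 3 between genes. The classes differed in how many reads they held. The 19 exon or UTR hairpins held 40.3% of the member reads, most of them from miR-4951-5p, the 18 hairpins in longer introns held 33.3%, and the 10 mirtrons held 22.9%, of which miR-4919-3p was the bulk. The 4 hairpins opposite a gene and the 3 between genes held 2.58% and 0.801%.

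Whether AGO1-bound miRNA levels depend on temperature was the question of the comparison of 18°C with 29°C. Enough reads for a test were present in 18 of the 77 members (23.4%, against 60.5% of all rows), and 6 of them passed an adjusted p of 0.05 in limma (Benjamini-Hochberg over the 244 rows tested) with a log2 fold change beyond 1. Over all rows tested this share was 16.0%. miR-4985-5p and miR-4940-5p were higher at 18°C, where the share over all rows tested in that direction was 9.84%, and miR-4919-3p, miR-4916-3p, miR-4976-5p and miR-4963-3p were lower at 18°C, where it was 6.15%. By adjusted p alone 7 of the 18 passed, with 39.8% over all rows, the added one being miR-4951-5p (higher at 18°C). A rare miRNA that enters the test only through the temperature at which it is high is bound to differ, so these counts describe the members and carry no test of their own. The 2 temperatures did not overlap for 7 of the 18 (3 higher at 18°C, 4 lower), and 38.9% of all rows tested were without overlap. The median log2 fold change was -0.10 over the 18 and 0.03 over all 244, and the median of its absolute size was 0.35 and 0.43. At 25°C the mean lay between the means at 18°C and 29°C for all 6 called members, and for 35 of the 39 rows called in all. It did so for 12 of the 18 tested members and for 143 of the 244 rows tested.

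**Figure D2:**
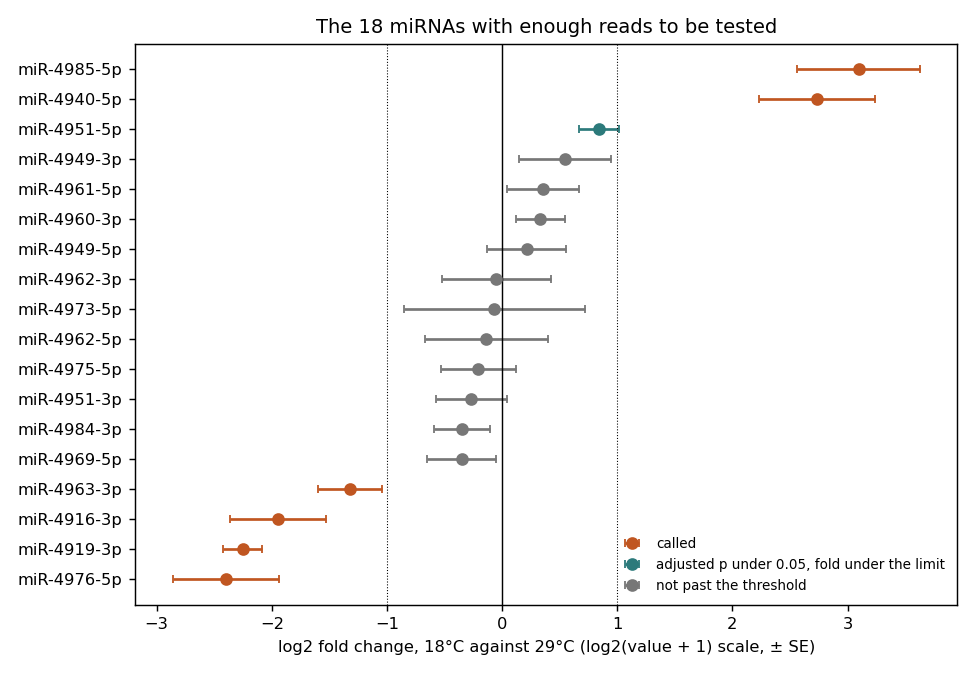
The log2 fold change between 18°C and 29°C of the 18 members tested, on the log2(value + 1) scale, with bars of 1 standard error and dotted lines at -1 and 1 (positive, higher at 18°C). Of these, 2 lie beyond the right line and 4 beyond the left one, and miR-4951-5p at 0.84 passed the adjusted p but not the fold limit.

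Among the mirtrons, miR-4919-3p had the most reads, and its adjusted p between 18°C and 29°C was the smallest of the 18 tested members. Its hairpin (chr2R:15945887-15945946, plus strand) is the whole 60-base intron of Cyp4aa1, a gene of the cytochrome P450 family. Its values were 88.4, 72.3, 96.0 and 81.0 at 18°C, 179, 137, 173 and 132 at 25°C, and 429, 508, 358 and 342 at 29°C. No library of one temperature overlapped another temperature, and the order was the same throughout, lowest at 18°C and highest at 29°C. The means were 84.4 ± 10.2, 155 ± 24.4 and 409 ± 76.0. In limma the log2 fold change between 18°C and 29°C was -2.25 (SE 0.170, adjusted p 4.00e-07), and between 29°C and 25°C it was 1.39 (SE 0.170, adjusted p 3.06e-04). Between 18°C and 25°C it was -0.87 (adjusted p 0.00323), under the fold limit.

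miR-4916-3p was a much rarer mirtron product. Its hairpin (chrX:9236460-9236518, minus strand) is the whole 59-base intron of Ir8a, which encodes a co-receptor of the ionotropic receptors that sense odours such as acids in the antenna. Its values were 1.79, 1.39, 1.70 and 4.26 at 18°C, from 1 to 6 reads each, 11.9, 7.15, 12.5 and 4.56 at 25°C, and 6.96, 11.3, 14.5 and 12.8 at 29°C. The 18°C libraries were below all others, though the highest of them (ZT21) came close to the lowest at 25°C, and 25°C and 29°C overlapped. The log2 fold change was -1.95 (SE 0.419, adjusted p 0.00190, limma) against 29°C and -1.59 (SE 0.419, adjusted p 0.0152) against 25°C. With a pseudocount of 10 both changes were under the fold limit (-0.79 and -0.61), and when only the 2 temperatures compared were in the model it had too few reads for either test. miR-4916-3p thus had enough reads only through the 25°C and 29°C libraries together, in which it was high. Its fold changes are therefore given as a description of these reads. The call against 25°C was also lost with DESeq2 (adjusted p 0.0544) and without 25°C ZT3 (0.0533) or 25°C ZT15 (0.0600). The other 8 mirtrons had too few reads to be tested. Summed with miR-4916-3p, these 9 rows reached 13.1 ± 0.812 at 18°C, 16.4 ± 5.51 at 25°C and 22.8 ± 5.68 at 29°C. The sum holds the called miR-4916-3p, so it does not show a rise of the other 8 mirtrons. Between 18°C and 29°C, reads went from 3 to 20 for miR-4914-5p and from 3 to 7 for miR-4910-5p. They went from 13 to 5 for miR-4909-3p, 10 to 1 for miR-4915-5p and 9 to 7 for miR-4913-3p. For miR-4911-3p, miR-4912-5p and miR-4908-3p they went from 4, 3 and 2 to 0.

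miR-4976-5p came from a hairpin opposite to a gene. The hairpin (chr2R:6835533-6835635, minus strand) overlaps a coding exon of CG15236 on the other strand, and this was the only tested member of the 4 hairpins so placed. It stood at 8.04, 11.1, 9.35 and 2.13 at 18°C, 16.2, 13.3, 21.7 and 18.23 at 25°C, and 42.5, 21.2, 31.7 and 86.7 at 29°C. The 18°C libraries were below all others, and one 29°C library (ZT9) fell within the range of 25°C. The log2 fold change between 18°C and 29°C was -2.40 (SE 0.461, adjusted p 8.78e-04, limma), and without the shallow 29°C ZT21 library, which held its highest value, it was -2.03 (adjusted p 0.00149). The differences of 25°C from 18°C (-1.23, adjusted p 0.0761) and of 29°C from 25°C (1.17, adjusted p 0.109) did not pass. With time points as pairs of 25°C and 29°C libraries, the latter passed in limma (SE 0.316, adjusted p 0.0298).

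In exons and UTRs, 8 members were tested and 2 were called, one in each direction. miR-4963-3p comes from the coding exon of CG15767 (chrX:5790753-5790861, plus strand). It had 6.25, 11.1, 5.95 and 6.39 at 18°C, 14.1, 16.3, 15.1 and 16.0 at 25°C, and 26.3, 19.7, 15.4 and 17.9 at 29°C. All 18°C libraries were below the rest, and 25°C and 29°C overlapped. The log2 fold change was -1.32 against 29°C (SE 0.279, adjusted p 0.00177, limma) and -0.995 against 25°C (adjusted p 0.0211), the latter at the edge of the fold limit, while with a pseudocount of 10 the former was -0.77 and under it.

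miR-4940-5p had the opposite direction. Its hairpin lies in the 3′ UTR of nwk (chr3L:9144593-9144697, plus strand), the gene of Nervous wreck, a membrane-shaping protein of synaptic terminals. It measured 16.1, 20.8, 24.6 and 12.1 at 18°C, 8.65, 8.17, 7.22 and 5.32 at 25°C, and 3.09, 1.41, 5.43 and 0 at 29°C, where the ZT21 library had no read. The 18°C libraries were above all others, and 25°C and 29°C overlapped at their edge. Its log2 fold change was 2.74 (SE 0.506, adjusted p 7.49e-04, limma) between 18°C and 29°C. The step from 25°C to 29°C (-1.54, adjusted p 0.0664) and that from 25°C to 18°C (1.19, adjusted p 0.110) did not pass. At 29°C, miR-4940-5p had 4, 1, 6 and 0 reads. It had enough reads for the test through the 18°C libraries, in which it was high. With only 25°C and 29°C in the model it was not tested, so its fold changes are given as a description of these reads.

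In longer introns, 7 members were tested and 1 was called. miR-4985-5p lies in an intron of Fatp3, a gene of the fatty acid transport protein family, 9 bases from the start of that intron (chr2R:24294231-24294331, plus strand). It was found at 11.6, 11.1, 13.6 and 10.7 at 18°C, 8 to 16 reads each, at 5.41, 4.08, 8.53 and 3.80 at 25°C, and at 3.87, 0, 0 and 0 at 29°C. At 29°C, 5 reads in the ZT3 library were all there were. This row had enough reads for the test through the libraries in which it was high, and with only 25°C and 29°C in the model it was not tested, so its fold changes are given as a description of these reads. The 18°C libraries were above all others, and the ZT3 library at 29°C passed the lowest at 25°C by a small margin. The log2 fold change was 3.10 (SE 0.535, adjusted p 4.39e-04, limma) between 18°C and 29°C and -2.06 (adjusted p 0.0194) between 29°C and 25°C. The latter was not called by edgeR (adjusted p 0.0985), by DESeq2 (adjusted p 0.194) or by limma with time points as pairs (adjusted p 0.0702). The 3p arm of the same hairpin had 1 read in each of 2 libraries at 18°C and none elsewhere.

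**Figure D3:**
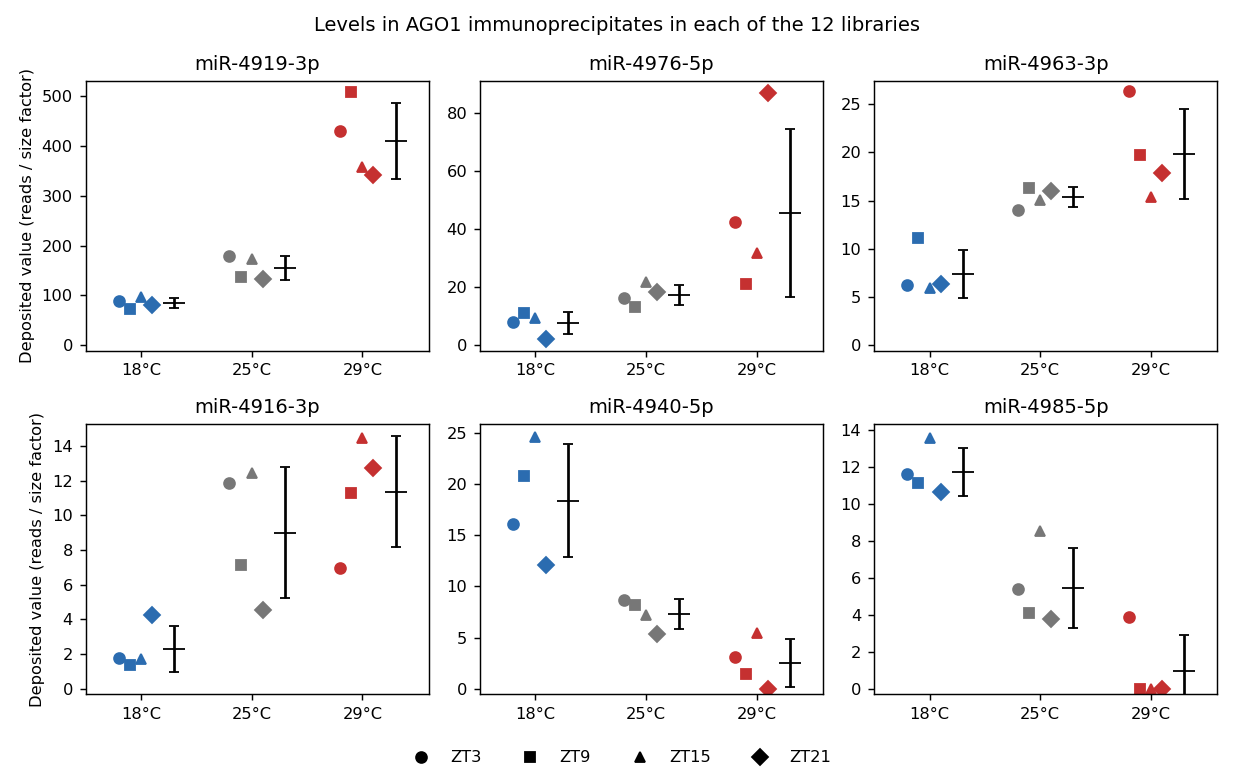
Deposited values (reads divided by the size factor, linear axes from 0) of the 6 called members in each library, with a marker shape for each time point and the mean ± SD (n = 4) beside each temperature. miR-4919-3p, miR-4976-5p, miR-4963-3p and miR-4916-3p were lowest in all 4 libraries at 18°C, and miR-4940-5p and miR-4985-5p were highest there.

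The summed testis miRNAs given above were highest at 29°C, as were the means of the 4 members lower at 18°C. At 18°C the testis sum lay within its range at 25°C, and these 4 members were below every 25°C library. The testis arms differed among themselves. From 18°C to 29°C, miR-964-5p went from 16.1 to 23.4 up to 43.4 to 72.7. The ranges of miR-974-5p (4.25 to 9.23 and 2.82 to 11.8) and miR-972-3p (2.84 to 5.56 and 0 to 3.87) overlapped. The arms named are examples of both kinds out of the 23 in the table, most of which had few reads. The part of other tissues in these differences was not tested. In head lysates, fewer cells holding a miRNA and less of it per cell cannot be told apart.

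The other comparisons called few members. Between 18°C and 25°C, 1 of 18 was called (miR-4916-3p, lower at 18°C), with 4.10% called over all rows tested, 3.69% higher and 0.410% lower at 18°C. As given above, miR-4916-3p had enough reads for this test only with the 29°C libraries also in the model. By adjusted p alone 4 members passed, the others being miR-4919-3p, miR-4963-3p and miR-4951-5p, with 19.7% over all rows. The libraries of these temperatures did not overlap for 8 of 18 members, with 24.6% over all rows. Between 29°C and 25°C, 2 were called, miR-4919-3p higher at 29°C and miR-4985-5p lower, and the share over all rows was 3.28%, of which 2.05% were higher and 1.23% lower at 29°C. For 2 members, miR-4919-3p and miR-4951-3p, these libraries did not overlap, with 16.8% over all rows. Both counts changed when single libraries were left out. For 18°C against 25°C, 0 members passed without 25°C ZT15 (adjusted p of miR-4916-3p 0.0600), miR-4963-3p in place of miR-4916-3p without 25°C ZT3 (adjusted p 0.0431 and 0.0533), 2 without 18°C ZT9 (miR-4963-3p added, adjusted p 0.0141) and 3 without 29°C ZT21 (miR-4940-5p and miR-4976-5p added, adjusted p 0.0332 and 0.0361). Between 29°C and 25°C, 1 member was left without 25°C ZT3, 25°C ZT15 or 29°C ZT9 (miR-4985-5p lost, adjusted p 0.0606 to 0.0716 in limma), and miR-4940-5p was added without 29°C ZT15 (adjusted p 0.0207). With time points as pairs the count was also 2, with miR-4976-5p in place of miR-4985-5p. The comparisons share their libraries, so that a member seen in more than one of them was not observed independently.

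miR-4951-5p, the most abundant member, was higher at 18°C by less than the fold limit. Its hairpin lies in an exon of lncRNA:Hsromega (chr3R:21316716-21316865, plus strand), a long noncoding RNA known for its strong induction by heat shock. It had 336, 461, 394 and 276 at 18°C, 246, 236, 219 and 216 at 25°C, and 202, 258, 172 and 181 at 29°C. The 18°C libraries were above all others, and 25°C and 29°C overlapped. The means were 367 ± 79.2, 230 ± 14.2 and 203 ± 38.6, and the log2 fold change was 0.84 against 29°C (SE 0.174, adjusted p 0.00150, limma) and 0.65 against 25°C (adjusted p 0.0157). The other arm overlapped between 18°C and each of the other temperatures. miR-4951-3p had 9.82, 11.1, 13.6 and 20.6 at 18°C, 10.8, 6.13, 7.22 and 12.2 at 25°C, and 19.3, 14.1, 16.3 and 15.3 at 29°C, and its log2 fold change between 18°C and 29°C was -0.27 (SE 0.311, adjusted p 0.534).

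The ratio of the arms does not depend on how libraries are scaled, and it was tested for hairpins with a mean of at least 10 reads in both arms, among them mir-4951 and mir-4962. The log2 ratio of 5p to 3p reads of mir-4951 was 5.03, 5.29, 4.81 and 3.72 at 18°C, 4.44, 5.15, 4.86 and 4.11 at 25°C, and 3.36, 4.13, 3.36 and 3.46 at 29°C. The 5p arm was thus the major one in all libraries. Its excess was smaller at 29°C on average, though the 18°C ZT21 and 25°C ZT21 libraries fell within the range of 29°C. The difference between 18°C and 29°C was 1.14 (SE 0.326, adjusted p 0.0110, limma). Over the 86 hairpins tested, 59.3% had an adjusted p under 0.05. With 6 to 29 reads of the 3p arm per library, the ratio is coarse.

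For mir-4962, located in an intron of Tlk, the gene of the Tousled-like kinase (chrX:3777382-3777505, plus strand), the arms kept close to each other. miR-4962-5p stood at 49.1, 157, 53.5 and 35.5 at 18°C, 41.1, 68.4, 66.3 and 127 at 25°C, and 47.2, 94.5, 32.6 and 148 at 29°C. miR-4962-3p stood at 33.9, 87.5, 28.9 and 21.3 at 18°C, 32.4, 33.7, 29.5 and 54.7 at 25°C, and 27.8, 49.4, 18.10 and 84.2 at 29°C. The same library was highest for both arms at each temperature, ZT9 at 18°C and ZT21 at 25°C and 29°C, and the temperatures overlapped widely. The log2 fold change between 18°C and 29°C was -0.14 (SE 0.534, adjusted p 0.902, limma) for the 5p arm and -0.05 (SE 0.477, adjusted p 0.952) for the 3p arm. The log2 arm ratio was 0.743 ± 0.158, 0.928 ± 0.403 and 0.829 ± 0.073, and it differed by -0.086 between 18°C and 29°C (SE 0.188, adjusted p 0.713).

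**Figure D4:**
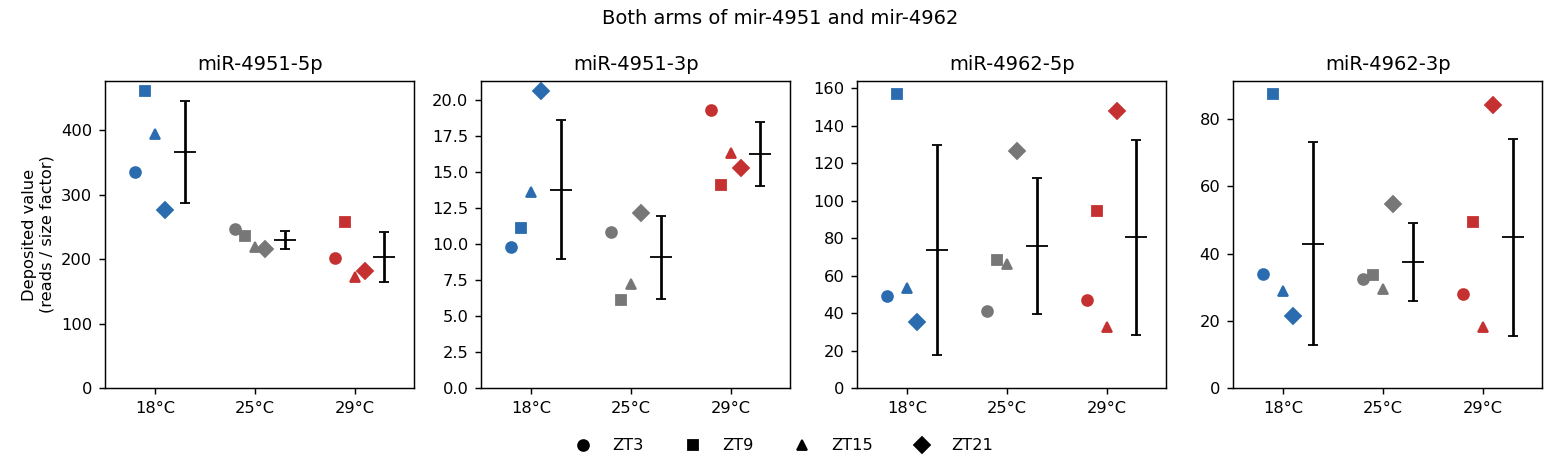
Deposited values of the 5p and 3p arms of mir-4951 and mir-4962 in each library (linear axes from 0, a marker shape for each time point), with the mean ± SD (n = 4) beside each temperature. miR-4951-5p was higher in all 4 libraries at 18°C than elsewhere and miR-4951-3p was not, while both arms of mir-4962 peaked in the same library at each temperature.

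The other 8 tested members did not pass in any of the temperature comparisons. In introns, miR-4960-3p, from Appl, the fly gene of the amyloid precursor protein family (chrX:569903-570003), had 51.5 ± 7.86, 51.4 ± 11.5 and 40.7 ± 6.98 from the coldest to the warmest group, and its log2 fold change from 29°C to 18°C was 0.33 (SE 0.214, adjusted p 0.232, limma). miR-4969-5p, from CASK, the gene of a scaffold protein of synapses (chr3R:21798514-21798671), had 34.5 ± 7.09, 56.8 ± 11.8 and 46.9 ± 19.1, and all its 18°C libraries (27.7 to 41.9) were below those at 25°C (42.5 to 68.9), with an adjusted p of 0.113 in limma. miR-4984-3p, from PAPLA1, a phospholipase gene (chr2L:8141540-8141662), had 32.8 ± 5.59, 41.5 ± 10.6 and 42.6 ± 10.3. The libraries of 18°C and 29°C overlapped for all 3. miR-4975-5p, within introns of CG45092 and chk (chr2R:6707163-6707273), had 35.8 ± 13.4, 59.0 ± 13.7 and 40.2 ± 13.1.

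Among exon and UTR hairpins, miR-4961-5p, from the 3′ UTR of ssx, the sister gene of Sex-lethal (chrX:1373623-1373755), had 18.0 ± 4.06, 16.2 ± 5.57 and 14.0 ± 4.16. Both arms of mir-4949 were tested, from the 5′ UTR of ATPsynC, which encodes a subunit of the mitochondrial ATP synthase (chr3R:31219274-31219372). The 5p arm had 13.3 ± 4.13, 13.4 ± 2.13 and 11.5 ± 4.08, and the 3p arm 10.6 ± 2.06, 8.26 ± 2.30 and 7.62 ± 3.71, with a log2 fold change of 0.55 (SE 0.400, adjusted p 0.294, limma) between 18°C and 29°C. For neither arm did the temperatures separate. miR-4973-5p, from an exon of lncRNA:CR45347 (chr2L:20562298-20562448), had 6.83 ± 5.02, 12.2 ± 3.83 and 8.82 ± 5.93 and was without a read in the shallowest library.

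Below the read filter, 59 members were left untested. They summed to 84.3 ± 8.11 at 18°C, 78.3 ± 8.45 at 25°C and 93.3 ± 15.5 at 29°C, with overlapping ranges (77.3 to 95.5, 66.4 to 85.8 and 73.3 to 110). When the filter was dropped, 12 members passed between 18°C and 29°C, and 13.4% of the 403 rows then tested did so. For 18°C against 25°C the same setting gave 1 member (2.73% over all rows), and between 29°C and 25°C it gave 3 (2.23%). The 6 members added between 18°C and 29°C rest on few reads. miR-4914-5p, a mirtron product of CG31689, had 0, 3, 0 and 0 reads at 18°C, 0, 1, 1 and 0 at 25°C and 6, 10, 2 and 2 at 29°C. miR-4943-5p, which spans a 5′ UTR and an intron of CG5953, had 3, 5, 6 and 4 reads at 18°C, 1, 0, 5 and 1 at 25°C and 1, 0, 1 and 0 at 29°C. miR-4950-3p, between genes, had 2, 1, 0 and 4 reads at 18°C and 7, 5, 6 and 3 at 29°C. miR-4915-5p, a mirtron product of RhoGAP1A, and miR-4957-5p, opposite an intron of the topoisomerase gene Top1, had 10 and 15 reads at 18°C against 1 and 3 at 29°C. miR-4987-5p, from a coding exon of CG6700, had none at 18°C and 5 at 29°C. No direction is read from so few reads.

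Time of day was tested over all libraries with temperature as covariate, with 3 libraries per time point. In limma, 0 of 18 members tested reached an adjusted p under 0.05, and before adjustment 0 were under 0.05. Over all 252 rows limma called 0, and 4.76% had an unadjusted p under 0.05. Neither edgeR nor DESeq2 called a member. By unadjusted p under 0.05, edgeR had 0 members and DESeq2 had 1, miR-4962-5p (unadjusted p 0.0362, adjusted p 0.865), and over all rows edgeR called 0 and DESeq2 1. The smallest member values in limma were unadjusted p 0.118 for miR-4962-5p, 0.129 for miR-4940-5p and 0.130 for miR-4951-5p, all with an adjusted p of 0.863. Without the 18°C ZT21 library, miR-4962-5p (adjusted p 0.00794) and miR-4962-3p (adjusted p 0.0241) passed, among 23 rows in all.

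The rows most like each called member in their log2 values over the 12 libraries were as follows, as a description only, since the libraries share temperature and depth. miR-4919-3p was closest to miR-92b-3p (Pearson's r 0.985), miR-33-5p (0.971) and miR-284-5p (0.933), and miR-284-5p was also among the 3 closest to miR-4963-3p (0.894) and miR-4976-5p (0.819). The others near miR-4976-5p were miR-278-3p (0.911) and miR-33-5p (0.882), and those near miR-4963-3p were miR-927-5p (0.876) and miR-1004-3p (0.876). miR-4916-3p was closest to miR-10-5p (0.908), miR-2279-5p (0.901) and miR-283-5p (0.879). Of those higher at 18°C, miR-4940-5p was closest to miR-281-1-5p (0.917), miR-2493-3p (0.902) and bantam-5p (0.890), and miR-4985-5p to miR-1013-3p (0.867), miR-281-1-5p (0.857) and miR-9372-3p (0.849). None of these rows belongs to the block of names described here.

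In other rare blocks of names, 9 of the 26 rows mir-9300 to mir-9399 and 7 of the 36 rows mir-2200 to mir-3699 had enough reads for the test. Of these, 5 of the 9 (4 higher at 18°C) and 2 of the 7 (1 higher) were called between 18°C and 29°C, as were 33 of the 226 tested rows outside the members (22 higher). These counts were not tested against each other.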

How the data were processed

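The authors assigned small RNA reads from AGO1 immunoprecipitates of fly heads to mature miRNAs of miRBase 21 with miRExpress. The genome build, program version and trimming are not given in the sources used here. The deposited values are a signal, the reads of a row divided by one size factor per library. Whole reads were recovered for 100% of the 4896 values (within 0.01), and 5 rows that repeated another row were dropped, none of them a member, which left 403. No 2 libraries were copies of each other (chi-square per degree of freedom of at least 213 over 18 pairs of one temperature).

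The test was limma (version 3.58.1, R 4.3.3) on log2(value + 1) with trend and robust estimation, in one model of 3 temperatures over 12 libraries. Rows passed filterByExpr on the recovered reads, and a call needed a Benjamini-Hochberg adjusted p under 0.05 over all rows tested with a log2 fold change beyond 1 in either direction. These limits, and time points as replicates, follow the study's methods, which used DESeq2. The log2(value + 1) scale understates changes of rare miRNAs. Deviations of libraries that share a time point correlated at 0.226 to 0.445 in the 4 pairs of 25°C and 29°C, which were therefore also fitted as pairs, and at -0.465 to 0.0627 in the 8 pairs with 18°C, which were not. Time of day was an F test over 4 time points with temperature as covariate. Arm ratios were log2((5p reads + 0.5)/(3p reads + 0.5)), tested with limma. edgeR (version 4.0.16, with TMM) and DESeq2 (version 1.42.0) were run on the recovered reads as alternatives, and edgeR called 38, 12 and 9 rows between 18°C and 29°C, 18°C and 25°C, and 29°C and 25°C. The scripts were tested on simulated data. Without molecular identifiers, read floors cover counting error only, and ligation preferences were not corrected, which limits comparison of levels between miRNAs.

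The members, marker lists and tests were chosen with earlier results of these data known. Values are given for every called member, every member with a mean of at least 10 reads, the 5 uncalled members with the smallest p between 18°C and 29°C, the 3 with the smallest p for time of day, and the 3 rows most correlated with each called member. Mature sequences were not used here, so members were not grouped by seed. Positions come from the BDGP6.54 annotation, matched by hairpin name, with ends compared with intron ends.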

Additional observations from a re-analysis of the deposited data

Results flagged for a closer look

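In each temperature group of 4 libraries, the highest and lowest value of the 18 tested members, and other values reported per library, were compared with the rest by Dixon's ratio. Of 66 groups searched, 8 had a library standing apart, and chance alone flags about 1 in 20 groups, or 3.3 here.

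At 18°C, miR-4962-5p was at 157 in the ZT9 library (113 reads) with 35.5 to 53.5 in the others, and miR-4963-3p at 11.1 (8 reads) in the same library with 5.95 to 6.39 in the others. miR-4916-3p was at 4.26 in the 18°C ZT21 library (6 reads) with 1.39 to 1.79 in the others, and miR-4949-5p was low at 18°C ZT3, at 7.14 (8 reads) with 15.3 to 15.6 in the others. At 25°C, miR-4962-3p was at 54.7 in the ZT21 library (72 reads) with 29.5 to 33.7 in the others.

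At 29°C, miR-4973-5p was at 0 in the shallowest library (ZT21) with 10.8 to 12.7 in the others, and miR-4985-5p was at 3.87 in the ZT3 library (5 reads) with 0 in the others. The log2 ratio of 5p to 3p reads of mir-4951 was 4.13 at 29°C ZT9 with 3.36 to 3.46 in the others.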

How the results depend on the processing

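Between 18°C and 29°C the 6 calls of members became 12 without a filter, 5 with only the 2 temperatures in the model (miR-4916-3p not tested), 4 with a pseudocount of 10 or at a mean of at least 10 reads, and 1 at a mean of at least 100 reads, where 2 members are left to test. They stayed between 6 and 6 when any 1 library was left out. Between 18°C and 25°C the 1 call became 2 with a pseudocount of 0.5 or TMM scaling, 3 with edgeR or with only the 2 temperatures in the model, 4 by adjusted p alone, and 0 with a pseudocount of 10, DESeq2, or a mean of at least 10 or 100 reads. Leaving out 1 library gave 0 (without 25°C ZT15) to 3 (without 29°C ZT21). Between 29°C and 25°C the 2 calls became 1 with a pseudocount of 10, a mean of at least 10 or 100 reads, edgeR, DESeq2, or only the 2 temperatures, and 1 (without 25°C ZT3, 25°C ZT15 or 29°C ZT9) to 3 (without 29°C ZT15) with 1 library left out. The cause of these shifts was not tested, apart from the smaller number of members tested under the stricter filters. For time of day, leaving out 1 library gave 0 to 2 calls, the latter without 18°C ZT21. For the arm ratio the 1 call became 0 at a minimum of 30 reads, which removes mir-4951, and stayed between 1 and 1 with 1 library left out. With 3 reads needed for detection, 30.2, 31.0 and 26.5 members were seen from the coldest to the warmest group. With 1 read needed and libraries thinned to the shallowest depth, 38.6, 37.9 and 37.5 were seen.

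Signs turned only for members with small differences between 18°C and 29°C. miR-4973-5p was at 0.0733 with a pseudocount of 0.5 and 2.07e-05 when scaled by library totals, and miR-4962-3p at 0.0463 with that scaling. With 1 library left out the log2 fold change ranged from -0.99 to 0.41 for miR-4973-5p, -0.46 to 0.32 for miR-4962-3p, -0.58 to 0.23 for miR-4962-5p, -0.36 to 0.11 for miR-4975-5p and -0.0205 to 0.46 for miR-4949-5p.

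Libraries that share a time point correlated above 0.1 between 25°C and 29°C only. Libraries of different time points were not compared, so this cannot show that the time point pairs them. The fit of the 25°C and 29°C libraries with the time point as replicate block was chosen after seeing the data. It gave 2 calls of members, gaining miR-4976-5p and losing miR-4985-5p, and changed no other call of a member there. A model over all libraries with the time point as replicate block gave the same numbers of member calls, 6 for 18°C against 29°C, 1 for 18°C against 25°C, 2 for 29°C against 25°C, and 1 for the arm ratio. Of 77 members, 62 had a mean under 10 reads.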
